A study of Spodoptera frugiperda with 12 samples.

Results

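The peaks described here lie at the 3′ end of stretches of the *Spodoptera frugiperda* genome that carry clustered N6-methyladenosine (m6A) peaks in embryos. Peaks of all 6 deposited lists were pooled, and those of the same strand with gaps below 2000 bases were joined, which gave 17120 loci. A locus was used when it spanned more than 1000 bases and held a peak in all 6 lists, which left 7655 loci with a median length of 4476 bases (range 1002 to 552992). Of the 331440 peaks in the lists, 266007 lay in these loci and spanned at most 1000 bases, and these are called located peaks. Each was placed by its midpoint along the locus in the direction of its strand, and each locus was cut into 10 equal parts, numbered from its 5′ end. The 66689 located peaks whose midpoint fell in part 10 are the 3′ peaks. They were chosen by the measured position of their midpoint, so their share of the located peaks (25.1%) only describes that choice. A further 367 peaks of part 10 spanned more than 1000 bases and were left out.

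The study profiled embryos of the fall armyworm, a noctuid moth kept on artificial diet in the laboratory, at 2 h and at 24 h after oviposition. Each time has 3 samples of RNA fragments pulled down with an m6A antibody and 3 samples of uncaptured input, and all 12 came from whole embryos of a laboratory population with no other treatment in the labels. The analysis rests on the 6 lists of the captured samples, and the input samples were not analysed here. Many embryos were pooled per time, and nothing in the labels ties the 3 samples of a time to different batches of eggs. The spread that every p-value here rests on may therefore be technical.

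m6A is a methyl mark placed on adenosines of messenger RNA, mainly by a methyltransferase complex built around METTL3 and METTL14, and read by proteins of the YTH family that affect how long an RNA lasts and how well it is translated. In vertebrates the mark is known to gather around stop codons and in 3′ untranslated regions, while in the fruit fly *Drosophila melanogaster* many sites lie in 5′ untranslated regions. Early animal embryos first use messenger RNA supplied by the mother and later their own transcripts. Position here is position in a run of peaks on the genome, not in an annotated transcript. The end of a locus is set by the outermost peak of any list, and introns count as length. The sources used here do not give the genome build, so sequence names and coordinates are those of the lists, and no gene or base sequence is given for them.

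Peaks were denser in part 10 than in any other part of these loci. The RNA was selected on oligo(dT) beads before capture, and the counts of peaks are not adjusted for coverage along transcripts. The 3 lists of 2 h held 11276, 11753 and 11390 3′ peaks, and the 3 lists of 24 h held 10446, 10776 and 11048. The highest list of 24 h was below the lowest of 2 h. Part 1, whose outer edge is set by peaks in the same way, held 12.7% ± 0.230 of located peaks (SD, n = 6 lists), and each of parts 3 to 5 held between 5.80% and 6.33%. Part 9 held 12.7% ± 0.377, so the share of peaks climbed over the last parts of the locus before it reached 25.1% ± 0.546 in part 10.

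**Figure D1:**
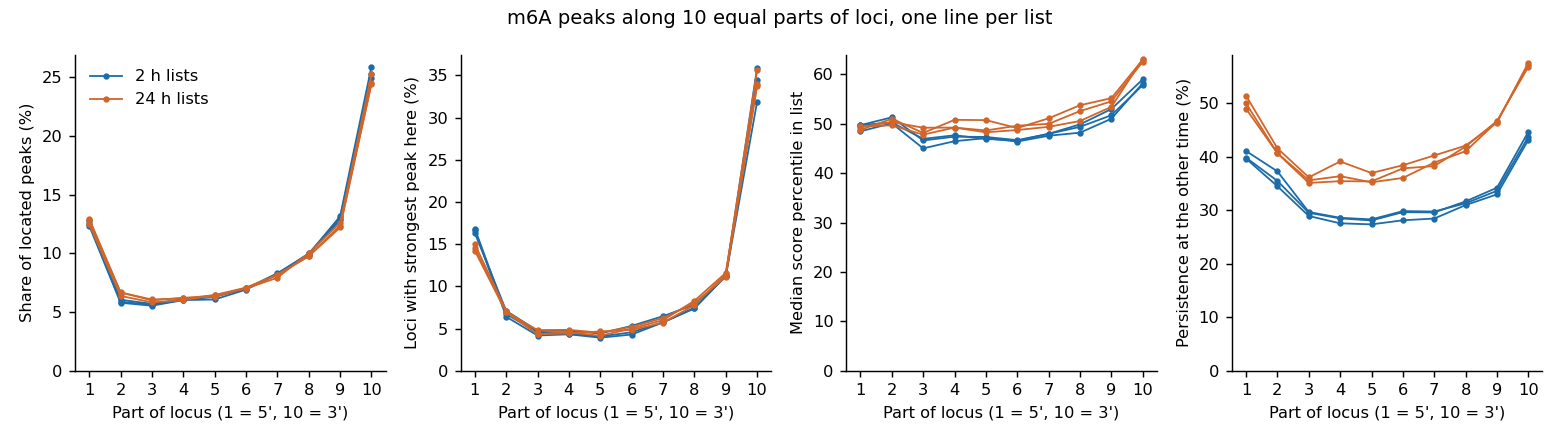
Located peaks by part of the locus, counted from the 5′ end, with panels for the share of peaks, the share of loci with their strongest peak there, the median score percentile and the persistence at the other time. Each line is 1 list, coloured by time. Part 10 is the highest of the 10 parts in each panel, at 25.1% of peaks, 34.3% of strongest peaks and a median percentile of 60.6.

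Within single lists, 3′ peaks were spread over most loci rather than held by a few. At least 1 list placed a 3′ peak in 7123 of the 7655 loci (93.1%), and 532 loci had none in any list. The outermost pooled peak sets the end of a locus, so this share was nearly fixed in advance. All 6 lists placed a 3′ peak in 3714 loci (48.5%). In a single list 28.2% ± 1.14 of the loci had no 3′ peak, 38.4% ± 0.185 had 1, 17.1% ± 0.440 had 2, 7.47% ± 0.412 had 3 and 8.87% ± 0.905 had 4 or more (SD, n = 6). The fullest locus of a list held between 20 and 27. A peak was present in part 10 of 71.8% ± 1.14 of loci per list and in part 1 of 54.5% ± 1.78. Both shares describe position, by which the 3′ peaks were chosen. The 6 lists share these loci and the pooled peaks that bound them.

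Where several 3′ peaks lay in 1 locus they were close together. The median gap between neighbouring 3′ peaks of a list was 108 ± 12.9 bases, against 213 ± 13.7 bases in parts 4 to 7 and 95.8 ± 10.2 bases in part 1. Gaps of at most 100 bases made up 52.4% ± 2.93 of the gaps in part 10 and 33.6% ± 1.62 in parts 4 to 7. These gaps were not tested.

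Along the 2856 loci longer than 6000 bases, distances in bases rather than parts gave the same picture. The 100 bases next to the 3′ end held 4.86 ± 0.139 located peaks per 1000 bases of sequence and per locus, and the 100 bases next to the 5′ end held 2.35 ± 0.0985. From 500 to 750 bases inwards the densities were 1.55 ± 0.106 and 0.430 ± 0.0330. At 2000 to 3000 bases they were 0.833 ± 0.0304 and 0.494 ± 0.0206. The 5′ side was lowest between 750 and 1000 bases, at 0.401 ± 0.0287, while the 3′ side declined over all of the 3000 bases measured.

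**Figure D2:**
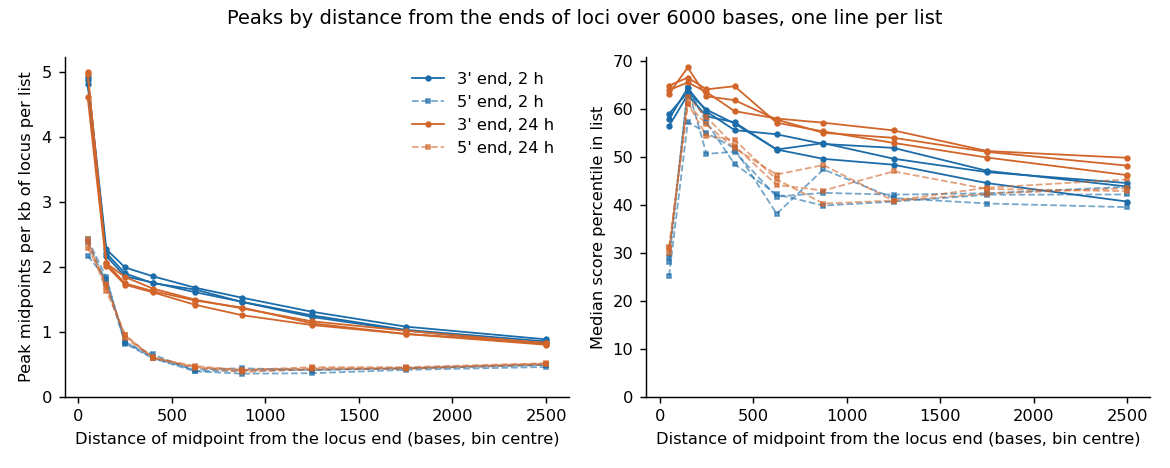
Density of located peaks (peaks per 1000 bases per locus) and median score percentile against distance in bases from the 3′ end and from the 5′ end of the 2856 loci over 6000 bases, with 1 line per list and 5′ lines dashed. The density at the 3′ end starts at a mean of 4.86 and stays above that at the 5′ end, which starts at 2.35, in every bin.

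A list's own outermost peak ended within 100 bases of the locus end in 68.8% ± 2.63 of loci at the 3′ side and in 63.6% ± 4.30 at the 5′ side. This too describes position and carries no test.

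Set against parts 4 to 7, 3′ peaks had a higher median width, but few of them were long. The width was 25 bases in 29.2% ± 0.766 of them, 50 bases in 17.7% ± 0.403, 75 bases in 19.9% ± 2.28 and 100 bases in 9.02% ± 0.633. Widths that are a whole number of 25-base steps made up 90.7% ± 0.195 of the 3′ peaks and 81.2% ± 1.65 of the peaks of part 1. The median width was 71.2 ± 4.45 bases against 75 bases in part 1, a difference that did not pass the test (−3.83 ± 4.45 bases, lower in 3 of 6 lists and equal in 3, two-sided exact sign-flip test over 6 lists, p = 0.25, adjusted p = 0.275 over 11 comparisons). The median of part 10 was 75 bases in every list of 2 h and 66 to 70 bases in those of 24 h. In parts 4 to 7 the median was lower, at 50 bases in every list, and 35.3% ± 1.39 of peaks were 25 bases wide. These differences between part 10 and the middle were not tested. The mean width, looked at afterwards, was 87.9 ± 3.57 bases in part 10 and 144 ± 10.97 in part 1. In parts 4 to 7 it was 111 ± 3.22 bases, above part 10. The difference in medians to part 1 was −15.7 bases within the last 500 bases, −54.2 without peaks of 75 bases and −71.0 in the stronger 50% of each list, all past the test.

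Long peaks were rarer at the 3′ end. Mean width was lower at the 3′ end by 46.0 to 65.3 bases in each of the 6 lists (mean difference −56.1 ± 7.86, exact sign-flip test, p = 0.031, the smallest this test can give, adjusted p = 0.0375 over 6 comparisons chosen after values had been seen). Peaks longer than 300 bases were 3.34% ± 0.201 of the 3′ peaks, 12.2% ± 1.97 of part 1 and 9.41% ± 0.474 of parts 4 to 7. A peak lies inside its locus, so in short loci a midpoint in part 10 or part 1 limits its width. In parts 4 to 7 this limit is weaker, and its effect on the comparison with the middle was not tested. Part 10 was below part 1 by 8.83 ± 1.78 percentage points, in 6 of 6 lists (exact sign-flip test, p = 0.031, adjusted p = 0.0375). With only widths of whole 25-base steps the difference in mean width was −6.68 bases and still passed the test. It was −21.1 at a joining distance of 500 bases and −21.6 without the outermost regions.

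The scores of the 3′ peaks ranked higher than those of peaks at the 5′ end of the same loci. Each peak carries a score set by the authors, whose scale is not stated, and the score was used only as a rank, given as a percentile from 0 to 100 within its list. The median percentile of the 3′ peaks was 57.8, 59.0 and 58.2 in the lists of 2 h and 63.0, 62.6 and 63.1 in those of 24 h. In part 1 it was 49.7, 49.7 and 48.5 at 2 h and 48.8, 49.3 and 49.5 at 24 h. The lowest list of part 10 was above the highest list of part 1, and the difference was 11.4 ± 2.63 percentile points (positive in 6 of 6 lists, exact sign-flip test, p = 0.031, adjusted p = 0.043 over 11 comparisons). Each list was also cut by score into 4 classes of equal size, and 33.4% ± 2.61 of the 3′ peaks fell in the highest class and 17.1% ± 1.13 in the lowest. An infinite score, the top of the scale, was held by 1.65% ± 0.292 of the 3′ peaks and by 0.938% ± 0.193 of the peaks of part 1.

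The difference in rank between the ends was widest in the outermost bases. In the loci over 6000 bases, the 100 bases next to the 3′ end had a median percentile of 60.9 ± 3.54 and the 100 bases next to the 5′ end one of 29.1 ± 2.23. From 100 to 200 bases inwards the 2 sides were at 65.2 ± 2.11 and 61.8 ± 2.65, with the 3′ side lower in 2 h replicate 1 and higher in the other lists. From 200 to 300 bases they were at 61.3 ± 2.36 and 55.4 ± 2.74, and between 500 and 750 bases at 55.1 ± 3.01 and 43.0 ± 2.95. At 2000 to 3000 bases they were at 45.5 ± 3.26 and 42.8 ± 1.94, and the 3′ side was the higher in every list. The SD of the 3′ side holds the difference between the times, with means of 43.0 at 2 h and 48.0 at 24 h. These distance bins were not tested. With the peaks of the outermost regions removed, the difference between part 10 and part 1 was 14.2 percentile points and passed the test.

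The strongest peak of a locus lay in part 10 more often than in any other part. This was counted per list over the loci with at least 2 located peaks (6537 ± 45.2 loci), and peaks tied for the highest score shared the count equally. Part 10 held the strongest peak in 31.9%, 34.5% and 35.9% of loci in the lists of 2 h and in 33.7%, 34.0% and 35.7% in those of 24 h. Part 1 held it in 16.3%, 16.8% and 16.7% at 2 h and in 14.5%, 14.998% and 14.2% at 24 h. The difference was 18.7 ± 1.95 percentage points (positive in 6 of 6 lists, exact sign-flip test, p = 0.031, adjusted p = 0.043).

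More peaks at the 3′ end give more chances to hold the strongest one, so the share was also set against the share of peaks in the same loci. A peak drawn evenly from each locus would lie in part 10 in 26.3% ± 0.369 of loci, and the strongest peak did so in 34.3% ± 1.46. The excess of 7.92 ± 1.27 percentage points was positive in 6 of 6 lists (exact sign-flip test, p = 0.031, adjusted p = 0.043). In part 1 the corresponding shares were 15.3% ± 0.252 and 15.6% ± 1.15. The share of strongest peaks there was above that of peaks in every list of 2 h (means 16.6% and 15.4%). It was below it in every list of 24 h (means 14.6% and 15.3%).

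The place of the strongest peak was constant in a minority of loci. Over the 5366 loci with at least 2 located peaks in every list, it lay in part 10 in at least 1 list in 3182 (59.3%) and in all 6 lists in 806 (15.02%). Counting each part of each of these loci as a case, 1563 of 53660 cases (2.91%) held the strongest peak in all 6 lists. Part 10 made up 806 of these 1563 (51.6%), and part 1 made up 230 (14.7%). Of the 1270 loci with the strongest peak in part 10 in all 3 lists of 2 h, 63.5% had it there in all 3 lists of 24 h as well. Of the 1113 loci that had it there in all 3 lists of 24 h, 72.4% also did in all 3 lists of 2 h.

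In 25 loci the strongest peak lay in part 10 in all 6 lists and had an infinite score in each, and 5 of these with the most 3′ peaks are described. On NC_049725.1, plus strand, 9718110 to 9763839, a locus of 45730 bases, a peak with an infinite score began at 9762190 or 9762215 in all lists and was 150 to 225 bases wide. In 2 h replicates 1 and 2 another peak, 1888 and 1900 bases from the 3′ end, tied with it at an infinite score. The 6 lists held 12, 14 and 12 3′ peaks there at 2 h and 14, 13 and 14 at 24 h, out of 12 to 16 located peaks. Nearly all located peaks of this long locus thus lay in its part 10, from 9759267 to 9763839.

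**Figure D3:**
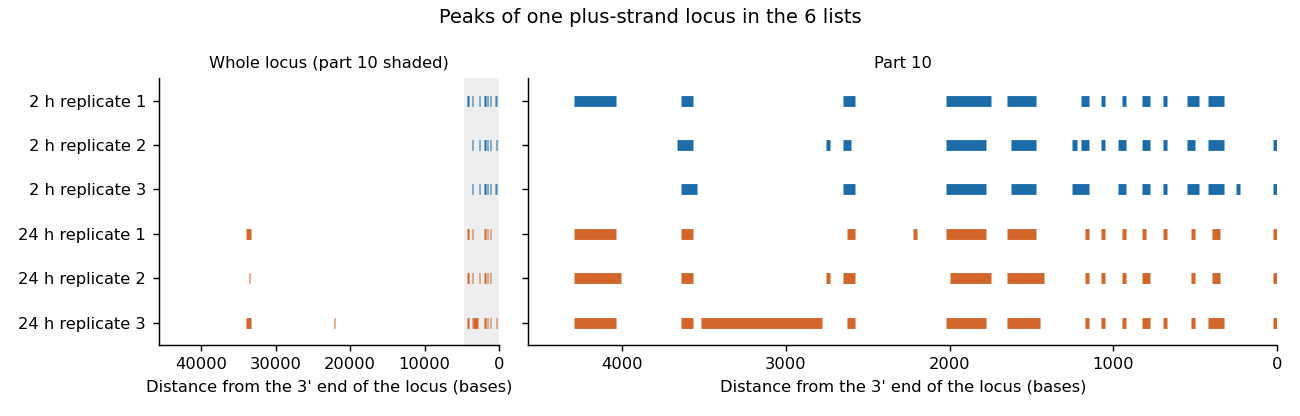
Located peaks of the plus-strand locus of 45730 bases on NC_049725.1 in each of the 6 lists, by distance in bases from its 3′ end, with peak widths to scale. The lists hold 12 to 14 peaks in part 10, at similar distances in all of them.

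The other 4 of these loci were shorter. On NC_049729.1, minus strand, 463380 to 472044, a strongest peak lay 563 to 588 bases from the 3′ end in every list, tied in 2 h replicate 1 with one at 738 bases. On NC_049733.1, minus strand, 65956 to 92884, 4 peaks tied at an infinite score in each of the 6 lists, the nearest of them within 62.5 bases of the 3′ end and the farthest 1325 to 1363 bases from it. On NC_049729.1, plus strand, 2554710 to 2577802, it lay 888 to 938 bases from the end and was 275 to 425 bases wide. On NC_049722.1, plus strand, 2322472 to 2329375, it lay 175 or 200 bases from the end. In each of the 4 the midpoint of the strongest peak, or of the nearest to the 3′ end among tied ones, lay within 50 bases among the 6 lists.

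Loci with the most 3′ peaks were long ones, from 45730 to 148070 bases. The highest count in the poorest list was found on NW_023337185.1, plus strand, 2556 to 70484, with 18, 22 and 18 3′ peaks at 2 h and 23, 20 and 18 at 24 h. Its strongest peak was the outermost one at 70318 to 70484 in 5 of the 6 lists and lay at the 5′ end in 24 h replicate 1. On NC_049725.1, minus strand, 1266197 to 1361836, the lists held 20, 22 and 17 at 2 h and 16, 17 and 18 at 24 h. On NC_049735.1, plus strand, 9818808 to 9966877, they held 14, 23 and 14 at 2 h and 21, 27 and 24 at 24 h. The strongest peak of that locus was at percentiles 79.6, 69.6 and 51.4 at 2 h and 96.3, 98.4 and 98.7 at 24 h. It was not the same peak in every list. Its midpoint lay 4402.5, 4502.5 and 4915 bases from the 3′ end in the lists of 2 h, with widths of 275, 125 and 100 bases. On NC_049725.1, minus strand, 8845037 to 8904505, part 10 held 13 to 18 peaks of 32 to 50 located. These loci were picked for their counts and carry no test.

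Persistence is the share of a list's peaks that overlap, by at least 1 base on the same strand, a peak of at most 1000 bases in all 3 lists of the other time. The loci hold a peak in all 6 lists, so peaks of loci seen at 1 time only were removed before persistence was counted. With the limits on length and width, this kept 84.4% to 85.9% of the peaks of a 2 h list and 75.02% to 77.2% of those of a 24 h list. The effect of this filter on the levels below was not tested. Of the 3′ peaks of 2 h, 44.7%, 43.1% and 43.7% were met in all 3 lists of 24 h. Of the 3′ peaks of 24 h, 57.1%, 56.8% and 57.6% were met in all 3 lists of 2 h. Every list of 24 h was above every list of 2 h, as was also so in part 1 (50.1% ± 1.23 against 40.2% ± 0.771, SD, n = 3) and in parts 4 to 7 (37.45% ± 1.12 against 28.7% ± 0.687). Agreement between single lists of the same time sets the scale for these values. A 3′ peak of 2 h was met in another 2 h list in 75.4% ± 1.51 of cases and in a 24 h list in 63.3% ± 0.720 (SD, n = 3). A 3′ peak of 24 h was met in another 24 h list in 65.3% ± 1.15 of cases and in a 2 h list in 70.5% ± 0.410, so it was met more often at the other time than at its own. Part 1 showed the same order, with 71.4% ± 2.101 and 59.3% ± 0.657 at 2 h and 59.1% ± 0.706 and 62.7% ± 1.12 at 24 h. These shares were not tested. A 3′ peak had no counterpart in any list of the other time in 17.2% ± 0.688 of cases, a peak of part 1 in 22.9% ± 1.91 and a peak of parts 4 to 7 in 27.7% ± 1.88 (SD, n = 6).

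3′ peaks persisted more often than peaks of the middle of the locus. The difference to parts 4 to 7 was 17.4 ± 2.58 percentage points and to part 1 5.37 ± 2.08 points, both positive in 6 of 6 lists (exact sign-flip tests, p = 0.031 each, adjusted p = 0.043). Persistence climbed with score at the 3′ end, in part 1 and in parts 4 to 7, where it was computed. From the lowest to the highest of the 4 score classes, 17.2%, 32.4%, 51.4% and 79.1% of the 3′ peaks persisted, against 15.6%, 30.5%, 53.5% and 80.7% of the peaks of part 1 and 10.6%, 21.6%, 38.2% and 67.9% of those of parts 4 to 7.

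At equal make-up by score the 3′ peaks were above the middle, and no difference to part 1 was detected. Averaged over the 4 score classes, a comparison added after values were seen, the difference to parts 4 to 7 was 10.4 ± 2.25 percentage points (positive in 6 of 6 lists, exact sign-flip test, p = 0.031, adjusted p = 0.0375). The difference to part 1 was −0.057 ± 1.61 points (from −2.08 to 2.37, positive in 3 of 6 lists, exact sign-flip test, p = 0.969, adjusted p = 0.969). With no adjustment for score, the difference to part 1 was −1.69 points without the peaks of 75 bases (exact sign-flip test, p = 0.031) and 2.38 points at a joining distance of 10000 bases, where it did not pass the test (exact sign-flip test, p = 0.0625). It was larger, and past the test, at a joining distance of 500 bases (13.6 points) and without the outermost regions (12.9 points). The difference to parts 4 to 7 passed the test in each of these settings and was smallest without the outermost regions, at 8.34 points.

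**Figure D4:**
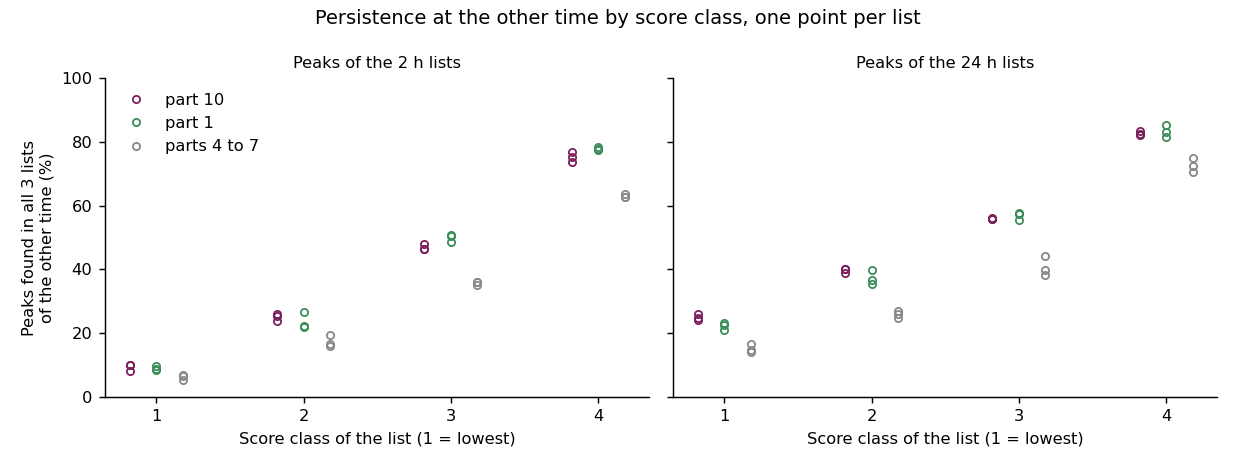
Percent of peaks met in all 3 lists of the other time, by score class of the list, for part 10, part 1 and parts 4 to 7 of the loci (each point is 1 list, with the lists of 2 h left and those of 24 h right). In class 4, the highest, the mean over lists of part 10 is at 79.1%, part 1 at 80.7% and parts 4 to 7 at 67.9%.

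Width went with persistence as well, though 1 shared base counts as overlap, which gives a wider peak more chances to be met. Of the 3′ peaks of 25 bases 25.5% ± 10.8 persisted, of those of 50 bases 44.6% ± 12.0, of those of 75 bases 49.3% ± 7.45, of those of 100 bases 73.1% ± 8.51 and of those of 150 bases 83.7% ± 5.39 (SD over 6 lists, which holds the difference between the times). In part 1 the values at the same widths were 16.1% ± 7.22, 28.4% ± 9.38, 35.8% ± 7.62, 58.1% ± 12.8 and 74.1% ± 8.87. These were not tested.

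Merging the overlapping located peaks of all lists on each strand gave 86748 regions, of which 18274 lay in part 10. Peaks of all 6 lists were present in 25.4% of the 3′ regions, 19.6% of the regions of part 1, 12.6% of those of parts 4 to 7 and 17.1% of all. A single list supplied 32.3% of the 3′ regions and 40.5% of all regions. Outside the mitochondrial sequence 4645 3′ regions had all 6 lists. Their median width over lists had a median of 95 bases, and in 174 of them it was over 300 bases.

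The 5 widest of these constant regions, all in part 10 by choice, had midpoints 435.5 to 1239.5 bases from the 3′ end of their locus. On NC_049728.1, plus strand, 1548373 to 1549374, the peak was 952 bases wide in all lists of 2 h and 977, 852 and 902 bases wide at 24 h. On NC_049734.1, plus strand, 8471234 to 8472104, the widths were 846, 846 and 871 bases at 2 h and 846, 871 and 846 at 24 h. On NC_049719.1, minus strand, 12881075 to 12882049, the strongest peak was in the top percentile of all 6 lists (99.3 to 99.5), and the widest peak of a list was 475 to 975 bases wide. On NC_049719.1, plus strand, 5208341 to 5209269, the widths were 929, 904 and 854 bases at 2 h and 25, 25 and 854 bases at 24 h. On NC_049737.1, plus strand, 7663809 to 7664749, they were 891, 891 and 866 bases at 2 h and 841, 841 and 25 bases at 24 h. The percentiles of that region in the 6 lists ran from 9.58 to 58.9. A region met in all lists could thus differ much in width from list to list.

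The 3′ share of peaks depended on locus length, and so did the 3′ share of strongest peaks. With classes of locus length bounded at 1000, 2000, 5000, 10000 and 20000 bases, the last open, there were 1340, 2850, 2040, 922 and 503 loci. The number of 3′ peaks per locus and list was 0.704 ± 0.0192, 1.07 ± 0.0485, 1.66 ± 0.0805, 2.46 ± 0.141 and 2.93 ± 0.0613 in this order (SD, n = 6). The share of located peaks in part 10 was 22.9% ± 0.364, 22.8% ± 0.342, 23.1% ± 0.758, 26.8% ± 1.35 and 39.2% ± 1.60. The 3 shorter classes differed by less than 1 percentage point, and the share was higher in the 2 longest.

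The strongest peak lay at the 3′ end more often in each longer class. It lay in part 10 in 24.3% ± 2.44, 30.8% ± 1.59, 37.7% ± 2.41, 42.9% ± 2.28 and 50.7% ± 1.30 of loci in the 5 classes. Its excess over the share of peaks was −0.423 ± 2.096 percentage points in the shortest class, then 5.93 ± 1.39, 12.9 ± 1.86, 13.9 ± 1.44 and 7.47 ± 1.67. In the shortest class the excess was −2.17 ± 0.861 points at 2 h and 1.32 ± 1.05 at 24 h (SD, n = 3). Loci over 10000 bases exceeded those of at most 2000 bases by 7.67 ± 1.60 percentage points in the share of peaks. This share describes position, by which the 3′ peaks were chosen, so its difference carries no test here. In the share of strongest peaks they exceeded them by 21.0 ± 2.97 points (positive in 6 of 6 lists, exact sign-flip test, p = 0.031, adjusted p = 0.043). Across 7294 loci, which share lists and are not independent, the mean over lists of the strongest-peak share and the log10 of locus length had a Spearman rho of 0.163 and a Pearson r of 0.173, given as a description.

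Part 10 of a long locus is a longer stretch than part 10 of a short one, and in fixed bases the order of the shares turned. A fixed stretch is a smaller fraction of a longer locus, so a fall of these shares with length is partly built in. Within the last 500 bases the strongest peak lay in 38.1% ± 1.89, 33.1% ± 2.099, 29.9% ± 2.46 and 26.2% ± 1.07 of the loci in the 4 classes above 2000 bases, from the shorter to the longer. The corresponding shares of peaks were 31.9% ± 0.439, 20.5% ± 0.449, 16.2% ± 0.813 and 16.5% ± 0.626. The share of strongest peaks thus lay above that of peaks in each of the 4 classes, by least in the shortest of them. The differences between loci over 10000 bases and those of at most 2000 bases became −30.1 percentage points for peaks and −13.9 for strongest peaks. With only widths of whole 25-base steps the difference in the share of peaks was 0.0954 points and positive in 3 of 6 lists. In that setting the loci too were built from those peaks alone. At a joining distance of 500 bases it was 23.0 points, and without the outermost regions it was 22.6 points and that in strongest peaks 35.3 points.

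**Figure D5:**
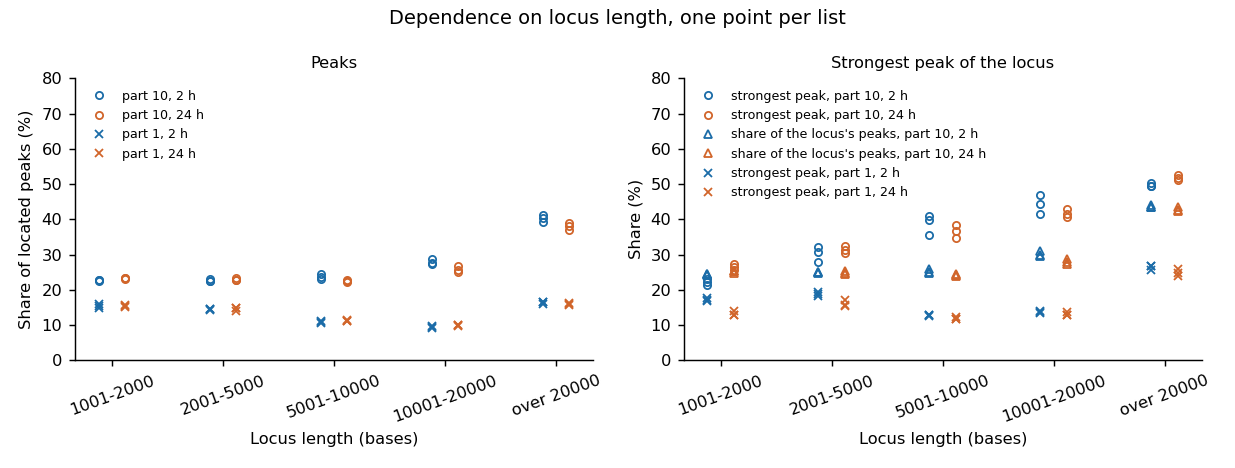
Share of located peaks in part 10 and part 1 (left), and share of loci with the strongest peak in part 10 or part 1 beside the share of the locus's peaks in part 10 (right), by class of locus length in bases, with 1 point per list. The mean share of strongest peaks in part 10 goes from 24.3% in the shortest class to 50.7% in the longest, while that of located peaks goes from 22.9% to 39.2%.

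Rank and persistence of the 3′ peaks went down with locus length. The median percentile in the 5 classes was 68.0 ± 1.39, 65.1 ± 1.92, 59.7 ± 2.54, 56.6 ± 3.69 and 55.8 ± 3.66. Persistence was 61.0% ± 6.71, 55.7% ± 8.09, 49.7% ± 8.06, 46.4% ± 7.74 and 41.4% ± 4.11. The SD of persistence holds the difference between the times. Within a time the order was the same, with 55.0% ± 1.41 in the shortest and 37.7% ± 0.0222 in the longest class at 2 h, and 67.1% ± 1.28 and 45.1% ± 1.18 at 24 h (SD, n = 3). These trends were not tested. The 3′ peaks of a longer locus can lie further from its 3′ end. In the loci over 6000 bases, located peaks within 100 bases of that end had a median percentile of 60.9 ± 3.54. At 2000 to 3000 bases from it the value was 45.5 ± 3.26. Persistence in these bins was 53.8% ± 5.72 and 31.7% ± 4.43. Whether rank or persistence went down with locus length at a fixed distance from the end was not tested.

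The 2 times differed in number, rank and width of the 3′ peaks by more than the spread of their lists, but 3 lists against 3 cannot reach a p below 0.1. The lists also differed as a whole, since 84.4% to 85.9% of the peaks of a 2 h list were located and 75.02% to 77.2% of those of a 24 h list. There were 1.499 ± 0.033 3′ peaks per locus at 2 h and 1.41 ± 0.039 at 24 h (difference −0.0936, no overlap of the lists, exact permutation test, p = 0.1, adjusted p = 0.122 over 11 comparisons). The difference was −0.0331 on loci built from the other time's lists (exact permutation test, p = 0.4) and −0.0622 in the stronger 50% of each list (exact permutation test, p = 0.2), where the lists overlapped. In part 1 there were 0.741 ± 0.028 and 0.725 ± 0.012 peaks per locus, and the lists overlapped.

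The rank of the 3′ peaks was higher in every list of 24 h than in any list of 2 h. The median percentile of the 3′ peaks was 58.3 ± 0.598 at 2 h and 62.9 ± 0.279 at 24 h, and its lead over part 1 was 9.03 ± 0.831 and 13.7 ± 0.501 percentile points. Other parts of the loci were higher at 24 h as well, with 47.2 ± 0.285 and 49.6 ± 0.761 in parts 4 to 7 and 51.9 ± 0.994 and 54.4 ± 0.889 in part 9. Mean width of the 3′ peaks was 91.0 ± 1.30 bases at 2 h and 84.8 ± 1.20 at 24 h, while that of the peaks of part 1 was 154 ± 0.969 and 134 ± 1.97. The lead of part 10 over part 1 in persistence was 3.67 ± 1.09 percentage points at 2 h and 7.06 ± 1.02 at 24 h. In the shortest loci the strongest peak lay in part 10 in 22.2% ± 0.885 of cases at 2 h and in 26.4% ± 0.859 at 24 h. The lists of the times did not overlap in the percentile, the mean width, the 2 leads and the share in the shortest loci (exact permutation tests, p = 0.1 each, adjusted p = 0.156 over 14 comparisons).

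Over all loci the share with the strongest peak in part 10 was 34.1% ± 2.02 at 2 h and 34.5% ± 1.05 at 24 h. The difference of 0.382 percentage points was within the spread of the lists (exact permutation test, p = 1), and its sign changed with several settings.

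Some loci had their strongest peak at the 3′ end at 1 time only. In 70 loci it lay in part 10 in 3 of 3 lists of 2 h and 0 of 3 of 24 h, and in 68 loci the reverse was seen. Over all 53660 cases of 1 locus and 1 part, 306 (0.570%) held it at 2 h only and 207 (0.386%) at 24 h only. Part 10 thus made up 22.9% of the changes of the first kind and 32.9% of those of the second, against 51.6% of the constant cases. Its share of 34.3% of all strongest peaks is a mean over lists, with more loci and with ties shared, so it is not a like measure. In part 1 the counts were 56 and 28. Leaving out any 1 list asks for fewer lists and gave 103 to 137 loci for 2 h and 90 to 128 for 24 h. The 5 loci per direction with the most located peaks in their poorest list are described with no test.

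In 3 of the 5 loci with a strongest 3′ peak at 2 h only, the strongest peak of 24 h lay in part 1 in at least 2 of the 3 lists. On NC_049721.1, minus strand, 4620724 to 4637664, it lay 563, 563 and 588 bases from the 3′ end at 2 h and in part 1 in all 3 lists of 24 h. On NC_049716.1, plus strand, 9452356 to 9468849, it was the outermost 3′ peak at 2 h, was in part 1 in 24 h replicates 1 and 2 and lay further in for replicate 3. On NC_049728.1, minus strand, 5823787 to 5840119, it lay in part 1 in replicates 1 and 3 of 24 h and nearer the middle in replicate 2. On NC_049713.1, minus strand, 15063628 to 15089652, it was 602, 752 and 727 bases wide at 2 h, and at 24 h the strongest peak lay 4815, 4927 and 4815 bases from the 3′ end. On NC_049713.1, minus strand, 15683594 to 15688643, its percentile was 93.9, 89.3 and 91.0 at 2 h, and at 24 h the strongest peak lay in a different place in each list at percentiles 81.8, 68.8 and 67.6.

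Loci with the strongest 3′ peak at 24 h only included 2 that held a single 3′ peak in every list. On NC_049733.1, plus strand, 1433305 to 1448015, each list held 1 3′ peak, and at 24 h it was 48 bases wide, at the very end of the locus, at percentiles 98.0, 97.5 and 97.6. At 2 h the strongest peak of that locus lay 4834, 4847 and 4809 bases from the 3′ end, at percentiles 97.1, 96.5 and 96.6. On NC_049720.1, minus strand, 11249892 to 11263914, each list again held 1 3′ peak, and at 24 h it was the strongest, 125 bases wide, at percentiles 99.4, 98.7 and 98.5. At 2 h the strongest peak lay 5434, 5434 and 5446 bases from the end.

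The other 3 held several 3′ peaks. On NC_049710.1, plus strand, 2251829 to 2267673, the strongest peak of 24 h was the outermost one, at percentiles 87.6, 88.1 and 89.5. On NC_049734.1, minus strand, 3199211 to 3213874, the strongest peak lay near 11957 bases from the 3′ end at 2 h and 850, 838 and 50 bases from it at 24 h. On NC_049716.1, minus strand, 10097826 to 10118195, it lay in part 1 at 2 h and at 3 different places of part 10 at 24 h.

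Of the 18274 3′ regions, 391 (2.14%) had a peak in 3 of 3 lists of 2 h and 0 of 3 of 24 h, and 159 (0.870%) had the reverse. Over all 86748 regions of the loci these shares were 1.86% and 1.04%, so the 3′ regions lay near them in both directions. In part 1 the counts were 210 (1.98%) and 130 (1.22%). Without any 1 list, again a looser rule, the counts of 3′ regions were 591 to 718 for 2 h and 245 to 396 for 24 h. Absence of a peak is absence from a list: no read counts were at hand, depth is unknown for every peak, and less RNA and less methylation cannot be told apart.

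At the edge of part 10 the peaks changed little. Between 0.90 and 0.91 of the locus length there were 682 ± 38.6 peaks per list, with a median percentile of 53.8 and a mean width of 89.7 bases, of which 42.4% persisted. Between 0.89 and 0.90 there were 663 ± 52.2, with a median percentile of 53.6 and a mean width of 100 bases, of which 43.3% persisted.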

How the data were processed

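Per the labels' protocols, total RNA of frozen embryos was enriched on oligo(dT) beads, fragmented and captured with an m6A antibody, and libraries were made with random primers and a kit that is not described as marking strand. The tools named in the submitters' processing notes are HISAT2 2.1.0, Bowtie2 2.2.5, fastp 0.20.0 and HOMER, with no roles. Peak caller, threshold and genome build: not given in the sources used here. Each deposited list comes from 1 sample and gives position, strand and the authors' score per peak, from 4.00 upwards and infinite for 0.930% to 1.50% of peaks per list. The lists hold 51157 to 58161 peaks and no read counts, so depth is unknown.

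From these lists loci, positions, ranks and overlaps were computed as described above. Ranks used the score within a list only. Parts of loci were compared by exact two-sided sign flips of the 6 differences (smallest p 0.031) and times by exact permutation tests of 3 lists against 3 (smallest p 0.1), with Benjamini-Hochberg adjustment over 11 comparisons, over 6 added later and over 14 comparisons of the times. Loci and regions were named by 5 rules, each giving 5: most 3′ peaks in the poorest list, highest rank of a strongest peak at the 3′ end in all lists, strongest peak there at 2 h only or at 24 h only with the most located peaks, and widest constant regions. The members, rules and tests were chosen with earlier results of these data known. Ties in the second rule were broken by the number of 3′ peaks. The steps were tested on simulated lists with peaks of equal width and a longer joining distance. The outermost peaks were in every simulated list, so locus ends set by only some lists were not tested. Same-numbered lists of the 2 times did not deviate together over the 86748 regions, so the numbers were not taken to pair samples. Alternatives are given in the closing section. Coverage along transcripts was not adjusted for. The software was matplotlib 3.10.9, scipy 1.17.1, pandas 2.3.3, numpy 2.4.6 and Python 3.11.15.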

Additional observations from a re-analysis of the deposited data

How the results depend on the processing

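The score, strongest-peak and mean-width differences between parts 10 and 1, and the persistence difference to parts 4 to 7, kept direction and call in all alternatives run over 6 lists; over these the score difference ranged from 6.84 to 17.8 percentile points, strongest peak from 14.8 to 23.6 percentage points, its excess over peak share from 4.61 to 11.1, persistence against parts 4 to 7 from 8.34 to 20.5 and mean width from −86.1 to −6.68 bases. Without any 1 list the smallest possible p is 0.0625. Those ranges were 11.7 to 12.0 percentage points for share of peaks (12.4 over all lists, a description of position, with loci rebuilt), 11.5 to 12.4 percentile points for score, 17.7 to 19.1 for strongest peak, 7.55 to 8.42 for its excess over peak share, 5.31 to 6.83 for persistence against part 1 and 16.6 to 17.5 against parts 4 to 7, 6.89 to 7.40 and 19.6 to 21.5 for the length comparisons of peaks and strongest peaks, −5.20 to −3 bases for median width and −56.8 to −53.3 for mean width. The cause of the following changes was not tested, except where the definition changed. Persistence against part 1 was 2.38 points (p = 0.0625, exact) at a joining distance of 10000 bases, −0.057 over score classes and −1.69 without peaks of 75 bases, and at most 15.5, for whole 25-base steps. The length comparison of peaks was −30.1 in the last 500 bases and 0.0954 for whole 25-base steps, otherwise 3.93 to 23.0, and that of strongest peaks −13.9 in the last 500 bases, otherwise 15.4 to 35.3. Median width differed by −15.7 bases in the last 500 bases, −71.0 in the stronger 50% of each list and −54.2 without peaks of 75 bases, all past the test.

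The 24 h minus 2 h difference in strongest peaks was −0.670 points on loci from the other time's lists, −0.275 on loci from the other 5 lists, −1.06 in loci over 3000 bases, −0.794 for whole 25-base steps, −0.388 for peaks of at most 300 bases, −0.588 without the outermost regions and −0.740 to 1.23 without any 1 list. That in 3′ peaks per locus was −0.108 to −0.0646 without any 1 list and −0.158 to −0.0331 otherwise. Loci with the strongest 3′ peak at 2 h only numbered 40 in the stronger 50% and 45 without the outermost regions, and at 24 h only 45 at a joining distance of 500, 45 for whole 25-base steps and 28 without the outermost regions. Leaving out 1 list gave 103 to 137 and 90 to 128. Regions at 2 h only numbered 183 at a joining distance of 500, 588 in parts 9 and 10, 246 in the outer 50% of part 10, 189 in the stronger 50% and 256 without the outermost regions, and 591 to 718 without any 1 list. At 24 h only they numbered 296 at 10000, 91 at 500, 258 in parts 9 and 10, 96 in the stronger 50%, 92 without the outermost regions and 245 to 396 without any 1 list. With a replicate block over same-numbered lists (exact sign-flip, smallest p 0.25), peaks per locus differed by −0.0936 (p = 0.25) and strongest peaks by 0.382 (p = 1). Score classes, ranks among located peaks, mean width and whole 25-base steps were chosen after seeing the data. Loci over 3000 bases gave no length comparison, and loci from other lists gave no counts.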

Other observations

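The 3′ share of peaks was alike on both strands and moderately different between sequences. It was 25.03% ± 0.535 over the 3765 loci of the plus strand and 25.1% ± 0.570 over the 3890 of the minus strand (SD, n = 6 lists), and the strongest peak lay in part 10 in 34.3% ± 1.59 and 34.3% ± 1.38 of loci. Among the 30 sequences with at least 100 loci, the share of peaks ran from 22.2% ± 0.447 on NC_049718.1 (369 loci) to 27.7% ± 0.953 on NC_049723.1 (163 loci). The mitochondrial sequence had 3 loci, with 25 of 175 located peaks in part 10 (14.3%) and 4 or 5 of them per list. These values were not tested.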
